A study of Mus musculus with 8 samples.

Results

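The genes of DNA methylation were followed through the developing mouse retina: 9 genes that write, maintain, remove or read the methyl mark on cytosine, out of 21831 genes in the tables. They were taken by gene symbol. Dnmt1, Dnmt3a, Dnmt3b and Uhrf1 write or maintain the mark, Tet1, Tet2 and Tet3 start its removal, and Mbd1 and Mbd2 bind to it. All 9 were found in all 8 tables, and all 9 reached an FPKM of at least 1 in at least 1 library, as did 13414 genes of the series. FPKM counts sequenced fragments relative to transcript length and to library size, so levels can be set side by side between genes.

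RNA sequencing was done on retina of ICR mice (background strain slc:ICR), with no transgene and no treatment in any group. Whole retina was taken at embryonic days 15 and 18 (E15, E18). At postnatal days 2, 5 and 8 (P2, P5, P8) retinas were dissociated and sorted by flow cytometry into a fraction with surface Cd73 (Cd73PC) and the remainder without it (Cd73NC). Cd73, encoded by Nt5e, is a surface enzyme of rod precursors and rods, so that Cd73PC stand for the rod lineage and Cd73NC for all the other retinal cells together. Retinas of several animals went into each sort, and each of the 8 conditions is 1 library. No difference could therefore be tested against a spread between replicates. The error given with a level is the pair of confidence bounds that Cufflinks deposited with it, which covers counting and read assignment within that library only. A gene was called higher or lower past 1.5-fold on FPKM + 1, which is 0.58 on the log2 scale.

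Methylation of cytosine in CpG pairs is copied to the new strand after each DNA replication by Dnmt1, which Uhrf1 guides to half-methylated sites. Dnmt3a and Dnmt3b place methyl groups on unmethylated DNA. The Tet enzymes oxidise the methyl group, after which it can be lost at replication or cut out by base excision repair. Mbd1 and Mbd2 bind methylated CpG and are known as repressors, Mbd2 as a subunit of the NuRD deacetylase complex. In the retina, progenitors still divide at birth, rods make up the largest class of cells born around then, and rod nuclei are known for a compact, inverted chromatin.

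The loci are given on NCBI37/mm9, the build of the tables, as whole gene spans with introns. Dnmt1 lies at chr9:20711650-20764332 on the minus strand and Uhrf1 at chr17:56442760-56462909 on the plus strand. Dnmt3a lies at chr12:3806980-3914443 and Dnmt3b at chr2:153475190-153513466, both on the plus strand. Tet1 is at chr10:62267318-62342762, Tet2 at chr3:133126641-133207354 and Tet3 at chr6:83312368-83391672, all on the minus strand. No other gene of the tables overlaps any of the 9 genes. The library kit did not keep strand, and the annotation places minus-strand transcripts inside Dnmt3a and Dnmt3b, whose reads cannot be told apart from those of the host genes.

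Promoters were read from RefSeq on GRCm38.p6, from 250 bases before to 50 bases after an annotated start site. Entries were found for 7 of the 9 genes, with 12 promoters, and not for Mbd1 and Mbd2. They were searched on both strands for the words of the E2F site, TTTCCCGC, TTTCGCGC, TTTGCCGC and TTTGGCGC; E2F factors are the classical regulators of genes of S phase, the phase of DNA replication. Of 32851 promoters, 2.26% held at least 1 word. Among the members, 2 of 12 promoters did, 1 of Dnmt1 and 1 of Uhrf1, and in a list of 12 S phase genes 6 of 11 promoters did, with 10 of the 12 genes matched. A match is a description of letters and not a bound site. The promoters of Dnmt1 (chr9:20952574-20952873, minus strand) and Uhrf1 (chr17:56304063-56304362, plus strand) that hold the words are printed because these genes are the maintenance pair. That of Tet3 (chr6:83441629-83441928, minus strand) is printed as an example with none of the words. The promoters of Dnmt3a, Dnmt3b, Tet1 and Tet2 held none either. Among them Dnmt3b, like Uhrf1, was lower at P8 than at P2 in both fractions. All the words contain CG, and the share over all promoters was not matched for CpG content. Capitals mark the words.
Dnmt1: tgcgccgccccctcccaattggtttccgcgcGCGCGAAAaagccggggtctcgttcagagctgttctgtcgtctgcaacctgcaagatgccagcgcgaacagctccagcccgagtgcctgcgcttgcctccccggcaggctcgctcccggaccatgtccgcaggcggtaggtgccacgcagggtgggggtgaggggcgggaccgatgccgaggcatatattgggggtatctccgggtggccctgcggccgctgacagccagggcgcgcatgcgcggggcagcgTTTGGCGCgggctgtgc
Uhrf1: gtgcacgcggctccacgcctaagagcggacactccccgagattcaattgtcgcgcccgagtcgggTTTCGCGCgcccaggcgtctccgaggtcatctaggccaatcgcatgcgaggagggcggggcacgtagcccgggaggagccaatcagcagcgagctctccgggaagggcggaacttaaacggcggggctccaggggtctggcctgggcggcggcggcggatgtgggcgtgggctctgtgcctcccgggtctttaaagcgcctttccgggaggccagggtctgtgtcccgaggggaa
Tet3: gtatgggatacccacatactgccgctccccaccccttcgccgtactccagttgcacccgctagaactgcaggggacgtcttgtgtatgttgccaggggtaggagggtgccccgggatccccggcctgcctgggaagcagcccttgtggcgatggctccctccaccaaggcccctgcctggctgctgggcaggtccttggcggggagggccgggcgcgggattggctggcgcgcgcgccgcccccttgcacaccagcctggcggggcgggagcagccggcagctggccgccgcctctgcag
In Dnmt1, 1 word began 219 bases upstream and another 33 bases downstream of this start site, and 0.0974% of all promoters held 2 or more words. In Uhrf1 the word began 185 bases upstream. The other 2 promoters of Dnmt1 and the other promoter of Uhrf1 held none. CpG pairs numbered 33 in each of the printed Dnmt1 and Uhrf1 promoters and 22 in that of Tet3, against a median of 26 over the 12 member promoters and 7 over all promoters.

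The libraries had a depth of 0.965 to 1.62 times that of the E18 library, as estimated from the steps between low values, and 11153 to 12415 genes at an FPKM of at least 1. The absolute depth is unknown. The sort was checked on 8 rod markers and Nt5e. All 8 rod markers were higher in Cd73PC at each stage, and their level in Cd73NC was 0.0556% to 4.74% of that in Cd73PC at P2, 5.52% to 21.1% at P5 and 5.13% to 9.11% at P8. Nt5e had 97.3, 131 and 124 FPKM in Cd73PC over the 3 stages and 2.43, 31.4 and 9.38 in Cd73NC. Cd73NC at P5 and P8 thus carried some rod transcripts. The Cd73NC fraction also changed its make-up: the summed FPKM of 6 bipolar cell markers was 186 at P2 and 1778 at P8, that of 8 progenitor and Müller glia markers 1304 and 740, that of 6 microglia markers 7.70 and 153, and that of 4 erythroid markers 106 and 5170, most of it Hba-a1 (5073 at P8). Of 6 amacrine and ganglion cell markers, 2 were past 1.5-fold higher and 2 lower in Cd73NC at P8 than at P2, with a median log2 ratio of -0.43; Isl1, also known from bipolar cells, made up 294 of their summed 306 FPKM at P8. Of 6 endothelial and pericyte markers, 2 were higher and 2 lower, with a median of 0.43. Of these markers, Grm6 of bipolar cells was listed at 0 at E18 and in P2 Cd73NC, and Pou4f2 of ganglion cells in P8 Cd73PC. In bulk samples, fewer cells of a type and less RNA per cell cannot be told apart.

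Between the fractions, the maintenance pair and Dnmt3b were lower in the rod lineage and Tet3 and Tet2 higher. Except for Dnmt3b, whose order of stages depended on the pseudocount, these differences were widest at P2. At P2, 2 of the 9 genes were past 1.5-fold higher in Cd73PC, Tet2 and Tet3, where 13.7% of expressed genes were, and 3 were past it lower, Dnmt1, Dnmt3b and Uhrf1, where 23.3% were. At P5, none was higher (background 11.3%) and 4 were lower, Dnmt1, Dnmt3b, Uhrf1 and Tet1 (background 25.1%). At P8, Tet3 was higher (background 12.1%) and 3 were lower, Dnmt1, Uhrf1 and Tet1 (background 29.6%). Expressed genes as a whole were shifted below 0 in these comparisons, with median log2 ratios of -0.13, -0.17 and -0.22 over the 3 stages, and the medians of the 9 genes were -0.03, -0.14 and -0.01. Quantile normalisation brings the median of all genes to -0.04, 0.00 and 0.02. After it, 2 members were higher and 3 lower at P2, where 16.2% and 19.1% of expressed genes were. At P5, 0 were higher and 2 lower (background 16.3% and 17.6%). At P8, 2 were higher and 1 lower (background 19.0% and 20.4%). Of all calls over expressed genes, 45.9%, 48.1% and 48.2% were then higher instead of 37.0%, 31.1% and 29.0%.

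**Figure D1:**
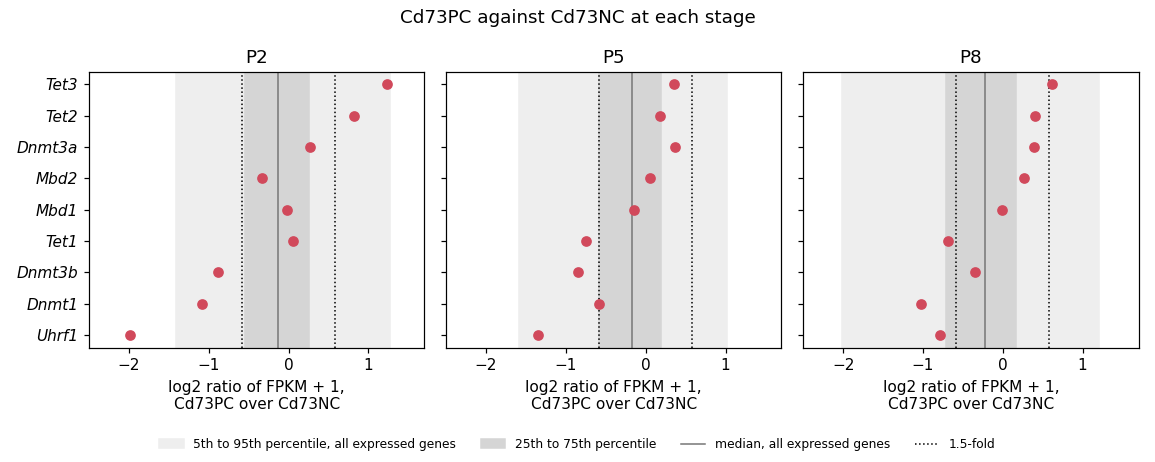
Log2 ratio of FPKM + 1 in Cd73PC over Cd73NC for each gene (red points, 1 library per fraction) at P2, P5 and P8, over the 5th to 95th and 25th to 75th percentiles of 13414 expressed genes (grey bands), their median (grey line) and the 1.5-fold limits (dotted). Uhrf1 sits farthest to the left at P2 and P5, at -1.99 and -1.36, Dnmt1 at P8, at -1.02, and Tet3 is farthest to the right at P2 and P8, at 1.23 and 0.62.

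Dnmt1, the maintenance methyltransferase, had 55.8 FPKM at E15 (bounds 53.6 to 58.3) and 62.2 at E18 (60.2 to 64.9). In Cd73NC it was at 53.6, 26.6 and 35.3 at P2, P5 and P8, and in Cd73PC at 24.7, 17.4 and 16.9. Every embryonic and Cd73NC library was thus above every Cd73PC library. The bounds of P5 Cd73NC (25.2 to 28.0) and P2 Cd73PC (23.5 to 25.9) overlapped, however. By stage, the log2 ratio of Cd73PC over Cd73NC was -1.09, -0.59 and -1.02, with bounds apart at each stage. The P5 value lay almost on the 1.5-fold limit and was -0.47 after scaling to a common upper quartile. In Cd73NC the level at P8 was above that at P5, by 0.40 on the log2 scale, with bounds of 33.9 to 36.9 against 25.2 to 28.0. No such step was seen in Cd73PC, whose bounds at P5 (16.3 to 18.5) and P8 (15.9 to 17.9) overlapped.

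Uhrf1, the partner that recognises half-methylated CpG, covered the widest range of the 9 genes, 199-fold. It was at 91.6 FPKM at E15 and 95.9 at E18, the highest level of any of the 9 genes at those ages. Over P2, P5 and P8, Cd73NC had 77.5, 15.0 and 1.56, and Cd73PC had 18.7, 5.25 and 0.481. The level was lower at each later stage in both fractions, with Cd73PC the lower at every stage and the bounds apart each time. The log2 ratio between the fractions was -1.99 at P2, a value that only 0.581% of expressed genes lay below, then -1.36 at P5 and -0.79 at P8. The FPKM themselves differed 4.13-fold, 2.86-fold and 3.24-fold, and with no pseudocount the log2 ratio at P8 was -1.69. From P2 to P8, Uhrf1 differed by -3.74 in Cd73PC and -4.94 in Cd73NC.

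The pair parted over time. Dnmt1 was at 0.609 times the FPKM of Uhrf1 at E15 and 0.648 times at E18, and at 22.7 times in Cd73NC and 35.1 times in Cd73PC at P8. Relative to E18, P8 Cd73NC held 56.8% of the Dnmt1 level and 1.62% of that of Uhrf1, and P8 Cd73PC 27.2% and 0.502%. A list of 12 genes of S phase had a median of 61.7 FPKM at E18, 66.0 and 15.5 in Cd73NC and Cd73PC at P2, and 4.48 and 2.20 at P8, the last being 3.56% of the E18 median. The course of Uhrf1 over the 8 libraries had a Pearson r of 0.99 with the mean of that list, that of Dnmt3b 0.95 and that of Dnmt1 0.88. Values of this size were not particular to these genes: r was 0.92 for Mbd1 and 0.89 for Mbd2. It was -0.96 for Tet3, -0.93 for Tet2, -0.86 for Dnmt3a and -0.13 for Tet1. These r are descriptions over 8 libraries that share stage and fraction. The progenitor and Müller glia markers also differed between fractions: all 8 were lower in Cd73PC at each stage. Their sum was 1206 FPKM at E18 and 152 in P8 Cd73PC. In Cd73NC these 8 markers did not share a single course over time. Against P2, 1 was past 1.5-fold higher and 2 lower at P5, and 1 higher and 6 lower at P8. Fgf15 was at 152, 18.1 and 3.15 FPKM over the 3 stages, and Rlbp1 at 83.1, 264 and 193. The median of the 8, which pools such courses, was 111% of that at E18 at P5 and 65.8% at P8. The S phase median was at 21.5% and 7.25% in the same 2 libraries. The part of the progenitor and Müller glia markers in these differences was not tested.

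**Figure D2:**
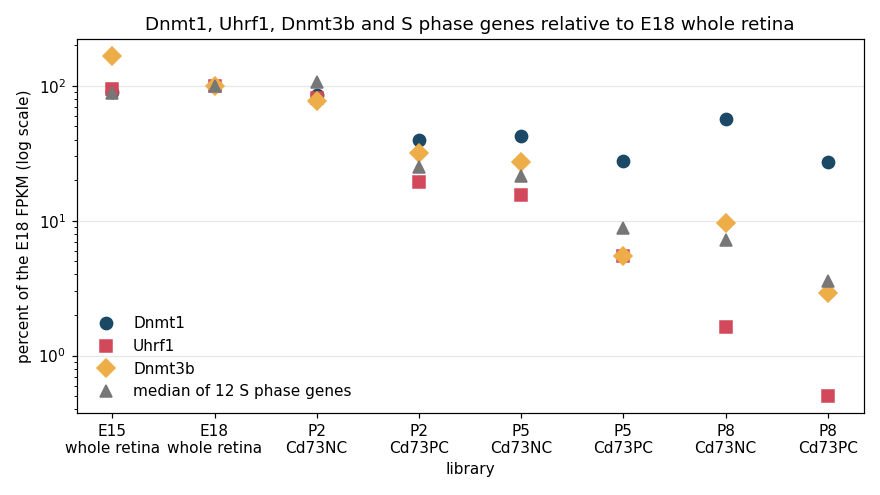
FPKM of Dnmt1, Uhrf1 and Dnmt3b, and the median FPKM of 12 S phase genes, as a percent of their value in E18 whole retina (log axis), in each of the 8 libraries. In P8 Cd73NC Dnmt1 is at 56.8% while Uhrf1 is at 1.62% and the S phase median at 7.25%.

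Of the enzymes that methylate new sites, Dnmt3a and Dnmt3b took opposite courses from P2 to P8, while both were lower at E18 than at E15. Dnmt3a was at 22.2 FPKM at E15 and 18.8 at E18, at 15.6, 20.8 and 33.8 in Cd73NC at P2, P5 and P8, and at 19.0, 27.2 and 44.6 in Cd73PC. The level was higher in Cd73PC at all 3 stages with the bounds apart, by 0.27, 0.37 and 0.39 on the log2 scale, and stayed within 1.5-fold each time. Its larger difference was with age: from P2 to P8 it was 1.19 higher in Cd73PC and 1.07 higher in Cd73NC, both past 1.5-fold. Dnmt3b was highest at E15, at 7.67 FPKM (6.88 to 8.46), and was at 4.60 at E18, the only member past 1.5-fold between these ages (log2 ratio -0.63; 3.32% of expressed genes were lower and 7.37% higher). It was at 3.58, 1.25 and 0.443 in Cd73NC and at 1.47, 0.252 and 0.135 in Cd73PC, so that both fractions ended below 0.5 FPKM. The log2 ratio between fractions was -0.89, -0.85 and -0.35, and with no pseudocount -1.28, -2.31 and -1.71.

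The make-up of the Dnmt family turned accordingly. Dnmt1 held 72.6% of the summed FPKM of Dnmt1, Dnmt3a and Dnmt3b at E18 and Dnmt3a 22.0%. In Cd73NC at P8 the shares were 50.8% and 48.6%, and the bounds of both genes overlapped (33.9 to 36.9 and 32.6 to 35.2). In Cd73PC Dnmt1 held 54.7%, 38.8% and 27.4% over the 3 stages and Dnmt3a 42.1%, 60.7% and 72.4%. The order of Dnmt1 and Dnmt3a was thus reversed in Cd73PC at P5 and P8, where their bounds lay apart, and in no other library. Dnmt3b went from 8.95% at E15 to 0.219% in P8 Cd73PC. Dnmt3l, a cofactor of the Dnmt3 enzymes in germ cells, was listed at 0 in 7 of the libraries and at 0.0356 FPKM in P8 Cd73PC.

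**Figure D3:**
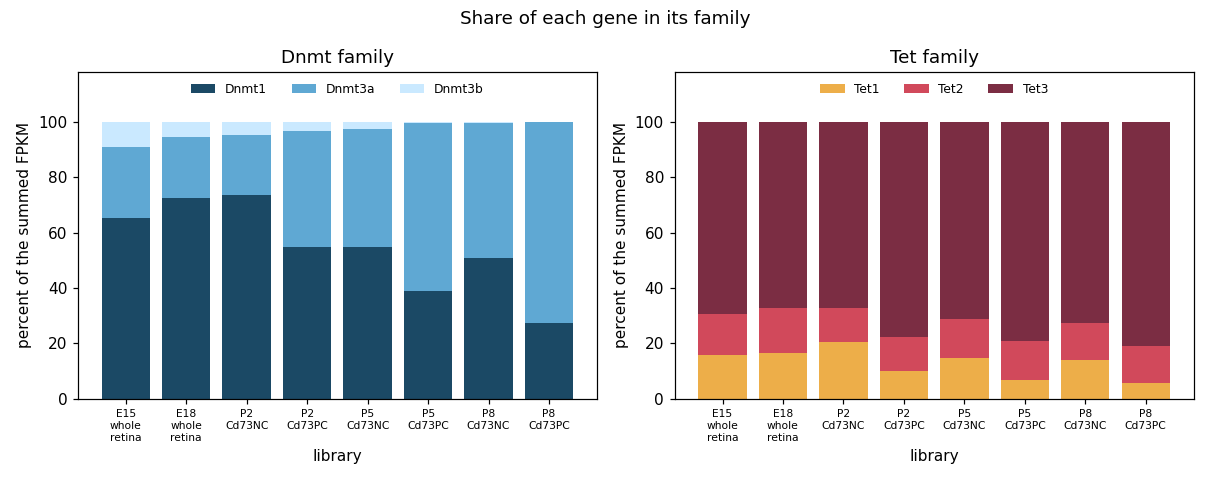
Share of each gene in the summed FPKM of its family, in percent, for the Dnmt family (left) and the Tet family (right) in each of the 8 libraries. Dnmt3a holds the larger share in P5 and P8 Cd73PC (60.7% and 72.4%), and Tet3 holds 67.2% to 81.0% of its family in every library.

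Among the Tet enzymes, which oxidise methylcytosine, Tet3 was the highest in all 8 libraries. It was at 16.5 FPKM at E15 and 16.1 at E18, at 12.8, 29.4 and 32.2 in Cd73NC, and at 31.3, 37.8 and 50.1 in Cd73PC. Cd73PC was above Cd73NC at each stage with the bounds apart, by 1.23, 0.35 and 0.62 on the log2 scale, of which P2 and P8 were past 1.5-fold. The P2 Cd73PC level was also past 1.5-fold above E18 (log2 ratio 0.92), the only member higher in that comparison (background 14.1%), whereas P2 Cd73NC was 0.31 below it. With age, P8 was above P2 by 0.66 in Cd73PC and 1.27 in Cd73NC. The rod transcripts in Cd73NC were also higher at P5 than at P2, as given above, and their part in this was not tested. In P8 Cd73PC, Tet3 was the highest of all 9 genes (bounds 48.3 to 50.9), followed by Dnmt3a (43.2 to 46.4) and Dnmt1.

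Like Tet3, Tet2 was higher in Cd73PC than in Cd73NC at each stage and higher at P8 than at P2, at lower levels. It was at 3.59 and 3.92 FPKM at E15 and E18, at 2.31, 5.85 and 6.03 in Cd73NC, and at 4.85, 6.75 and 8.29 in Cd73PC. The log2 ratio between fractions was 0.82 at P2, past 1.5-fold, then 0.18 at P5, where the bounds overlapped, and 0.40 at P8. Tet1 took another course, at 3.75 and 3.94 at E15 and E18, 3.88, 6.07 and 6.14 in Cd73NC, and 4.06, 3.22 and 3.43 in Cd73PC. Cd73NC at P5 and P8 thus stood above the other 6 libraries, which lay between 3.22 and 4.06. The log2 ratio was 0.05 at P2, with overlapping bounds, and -0.75 and -0.69 at P5 and P8, both past 1.5-fold with the bounds apart. After quantile normalisation those values were -0.35 and -0.25, within 1.5-fold. Tet1 and Tet2 were level at E15, at E18 and in Cd73NC at P5 and P8, where their bounds overlapped, while Tet2 was the higher in all 3 Cd73PC libraries and Tet1 in P2 Cd73NC.

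Mbd1 (chr18:74427942-74442338) and Mbd2 (chr18:70727946-70785785) lie on the plus strand of the same chromosome. Mbd1, a methyl-CpG reader, was the flattest of the 9 genes. It was at 14.6 and 15.5 FPKM at E15 and E18, at 15.1, 13.9 and 12.8 in Cd73NC, and at 14.8, 12.5 and 12.7 in Cd73PC, a 1.25-fold range. Its bounds overlapped in all 12 comparisons made, and the sign of its fraction difference changed with the scaling at each stage. Mbd2 was at 21.0 and 24.9 at E15 and E18, at 25.8, 17.1 and 12.5 in Cd73NC, and at 20.3, 17.9 and 15.3 in Cd73PC. It was lower in Cd73PC at P2, by 0.33 on the log2 scale with the bounds apart. At P5 and P8 the log2 ratio was 0.06 and 0.27 with overlapping bounds. From P2 to P8 the Mbd2 level in Cd73NC fell by 0.99 on the log2 scale, past 1.5-fold, and in Cd73PC by 0.39. Mbd2 lay above Mbd1 by its bounds at E15, at E18, in both P2 fractions and in P5 Cd73PC, and could not be separated from it in the other 3 libraries.

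**Figure D4:**
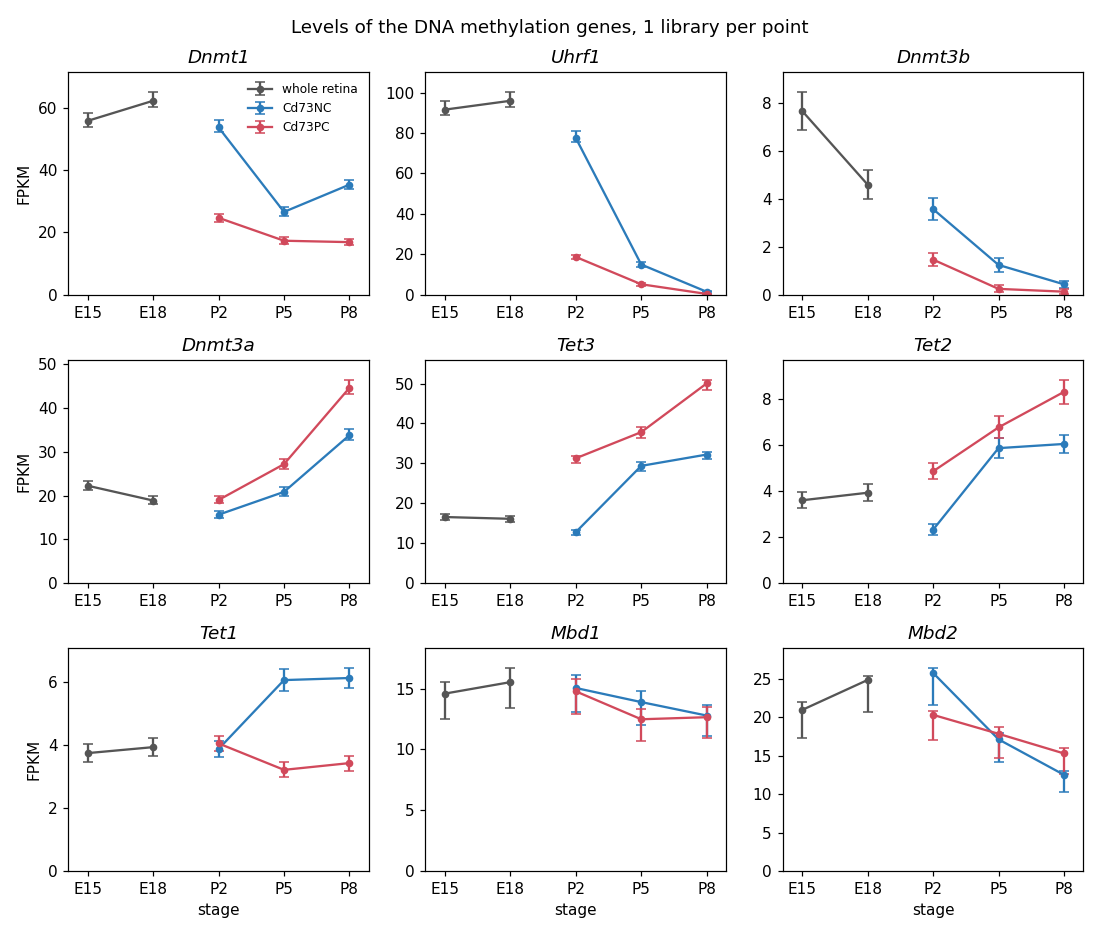
FPKM of the 9 genes (y axis, own scale for each gene, from 0) by stage (x axis) in whole retina (grey), Cd73NC (blue) and Cd73PC (red); each point is 1 library and the bars are its Cufflinks bounds. At P8, Dnmt1, Uhrf1 and Dnmt3b lie below their embryonic levels in both fractions, and Dnmt3a, Tet2 and Tet3 above theirs. The last 3 reach 44.6, 8.29 and 50.1 FPKM in P8 Cd73PC, and Tet1 splits after P2.

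By age within a fraction, more of the 9 genes differed from P2 to P8 than from E15 to E18, a shorter span. More of all expressed genes did so too: from E15 to E18 the backgrounds were 7.37% higher and 3.32% lower. In Cd73PC, Dnmt3a, Tet2 and Tet3 were past 1.5-fold higher at P8 than at P2 (background 10.3%) and Uhrf1 and Dnmt3b lower (background 23.7%). In Cd73NC the same 3 were higher (background 20.9%) and Dnmt1, Dnmt3b, Uhrf1 and Mbd2 lower (background 23.0%). Dnmt1 passed in Cd73NC with a log2 ratio of -0.59 and did not in Cd73PC with -0.52, a small gap that was not tested. Against E18, P2 Cd73PC was lower for Uhrf1, Dnmt1 and Dnmt3b (log2 ratio -2.30, -1.30 and -1.18; background 29.1%). P2 Cd73NC had no member past 1.5-fold on either side of E18, with backgrounds of 5.14% higher and 12.8% lower; Tet2 was nearest, at -0.57. Age and sorting both differ between the E18 and P2 libraries and cannot be told apart, and the comparisons of P2 Cd73PC share that library.

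The other genes of the pathway were counted in 6 lists. Over all expressed genes, 13.7%, 11.3% and 12.1% were past 1.5-fold higher in Cd73PC at P2, P5 and P8. At the same stages 23.3%, 25.1% and 29.6% were past it lower. These shares are the background for each of the 6 lists. Counts near them, such as 3 of 10 partners lower at P8, do not set a list apart from other genes. Of 10 expressed partners of the methylation machinery, 7, 5 and 3 were past 1.5-fold lower in Cd73PC over the 3 stages and none was higher, with median log2 ratios of -1.36, -0.63 and -0.48. Zfp57, which protects imprinted methylation with Trim28, had the largest mean difference: 6.03, 5.83 and 9.58 FPKM in Cd73NC and 1.61, 1.61 and 1.14 in Cd73PC. Hells, a chromatin remodeller needed for methylation of repeats, was at 18.8 FPKM at E18, 24.7 in P2 Cd73NC, 6.77 in P2 Cd73PC and 0.482 in P8 Cd73PC. Its known partner Cdca7 had 44.3, 46.1, 11.3 and 0.991 in the same libraries, and the related Cdca7l 21.6, 18.3, 4.86 and 0.403. Uhrf2, the paralog of Uhrf1, was at 28.6 FPKM at E18, 22.2 and 22.9 in Cd73NC and Cd73PC at P2, and 9.37 and 9.92 at P8, so it did not share the gap between fractions seen for Uhrf1 and stood above it in both P8 libraries.

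Of 11 other proteins that bind methylated or plain CpG, 2, 1 and 1 were higher over the 3 stages and 1, 2 and 1 lower, with medians of -0.10, -0.28 and -0.36. Zbtb4, a zinc finger protein that binds methylated CpG, was the highest by mean difference, at 2.23, 8.38 and 9.45 FPKM in Cd73NC and 11.4, 20.0 and 26.2 in Cd73PC. Kdm2b, a demethylase that binds unmethylated CpG islands, was at 18.9, 18.1 and 16.8 in Cd73NC and 11.9, 7.79 and 6.81 in Cd73PC. Zbtb33, also called Kaiso, had log2 ratios of -0.19, -0.73 and -0.43. Mbd3, the NuRD relative of Mbd2, was at 52.3 to 99.7 FPKM over the 8 libraries, above Mbd2 in each. Mbd4, a glycosylase for mismatches at CpG, was at 6.12 at E18, and at 1.83 and 2.05 in the P8 fractions.

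Of 16 partners of oxidation and base excision repair, 2, 0 and 1 were higher over the 3 stages and 6, 6 and 5 lower, with medians of -0.42, -0.27 and -0.40. Gadd45g, tied to repair-based demethylation, was at 78.3, 97.8 and 31.3 FPKM in Cd73NC and 21.4, 17.6 and 4.94 in Cd73PC. Apex1, the nuclease that cuts abasic sites, had log2 ratios of -1.07, -1.50 and -1.72. Tdg, the glycosylase that removes the oxidised bases made by Tet enzymes, was at 6.75, 6.74 and 5.37 in Cd73NC and 5.63, 2.56 and 3.82 in Cd73PC, and only P5 was past 1.5-fold. Neil3, another glycosylase, had log2 ratios of -1.57, -0.99 and -0.39.

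Among 10 genes of the methyl donor cycle, 1, 1 and 3 were higher over the 3 stages and 4, 1 and 1 lower, with medians of -0.46, -0.15 and 0.14. Shmt1, a serine hydroxymethyltransferase, was at 16.1, 4.14 and 1.79 in Cd73NC and 3.63, 1.08 and 0.364 in Cd73PC. Mthfd1, a folate enzyme, had log2 ratios of -1.36, -0.50 and -0.02. Of 11 subunits of NuRD, the complex that Mbd2 joins, 2, 4 and 6 were lower at P2, P5 and P8 and none higher, with medians of -0.34, -0.34 and -0.61. Mta3 was at 10.9, 5.25 and 3.93 in Cd73NC and 4.05, 1.48 and 0.751 in Cd73PC, and Mta1 at 44.4, 43.1 and 39.9 and at 24.8, 19.2 and 15.2. The deacetylase Hdac2 had log2 ratios of -0.36, -0.59 and -0.92. The 12 S phase genes were lower in 12, 9 and 7 cases, with medians of -1.78, -1.15 and -0.85, led by the helicase subunits Mcm5 (mean log2 ratio -1.57), Mcm6 (-1.51) and Mcm3 (-1.51); Pcna stands in this list and in that of the partners.

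**Figure D5:**
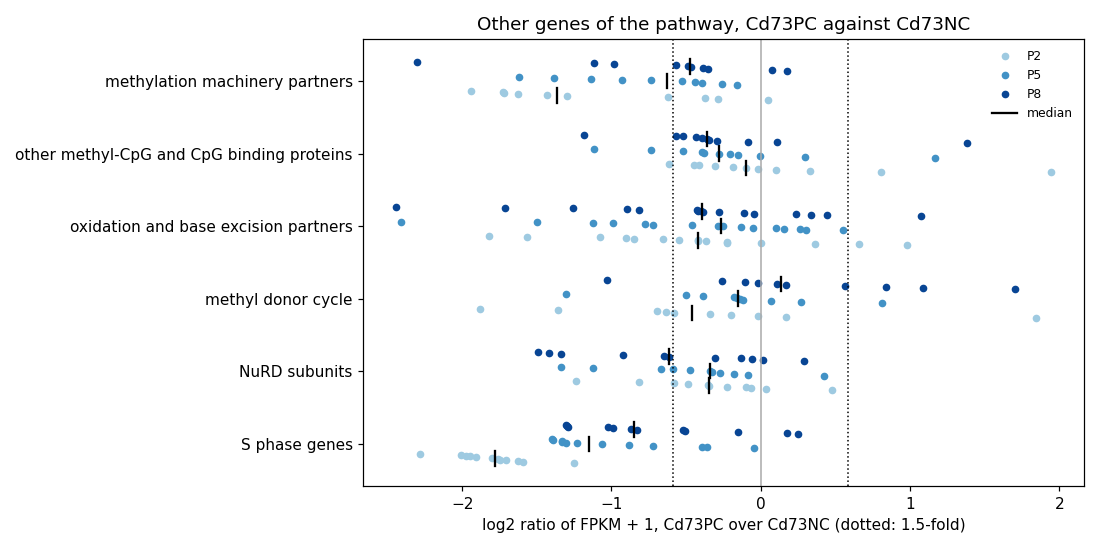
Log2 ratio of FPKM + 1 in Cd73PC over Cd73NC for each expressed gene of 6 lists (points) at P2, P5 and P8 (light to dark blue), with the median of each list (black bar) and the 1.5-fold limits (dotted). The S phase medians are the lowest of the 6 at each stage, at -1.78, -1.15 and -0.85, and the methyl donor cycle at P8 has the one median above 0, 0.14.

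The genes whose course over the 8 libraries was most like each member were named by Pearson r of log2(FPKM + 1) among 8803 genes, as a description. Uhrf1 lay nearest to the mitotic genes Kif2c (r 0.998), Gtse1 (0.997) and Aurkb (0.996). Among the genes nearest to Tet3 were Jarid2 (0.988), a Polycomb cofactor, and 4932438A13Rik (0.987). Dnmt1 was nearest to Pkp4 (0.993), Grinl1a (0.991) and Ttc4 (0.991), and Dnmt3b to Nedd9 (0.995), Penk (0.994) and Ier5l (0.994). For Dnmt3a they were Bysl (0.975), D5Ertd579e (0.971) and Zfyve9 (0.969), and for Tet2 Tom1l2 (0.982), Mllt6 (0.982) and 8430427H17Rik (0.971). Tet1 was nearest to Xpc (0.978), Timp2 (0.971) and Ddit4 (0.965), Mbd1 to Insig1 (0.972), Fam76b (0.971) and Chka (0.964), and Mbd2 to Pcgf5 (0.980), Kif22 (0.980) and 3110082I17Rik (0.977). Of all 27 genes so chosen, 8 were found again after quantile normalisation.

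Over all 3 stages, Dnmt1 and Uhrf1 were past 1.5-fold lower in Cd73PC each time, where 12.7% of expressed genes were, and no member was past it higher each time, where 5.7% were. In scalings compared after seeing the data, at a common upper quartile this held for 1 gene, Uhrf1, and after quantile normalisation for 0. Dnmt3b was lower, and Dnmt3a, Tet2 and Tet3 higher, in Cd73PC at every stage without passing 1.5-fold each time. Microglia markers moved with P2 Cd73PC, where all 6 were past 1.5-fold higher than in Cd73NC and summed to 43.4 against 7.70 FPKM, and erythroid markers with Cd73NC at P8, where they summed to 5170 against 2075. Their part in the differences of the 9 genes was not tested.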

How the data were processed

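RNA from whole retina and from sorted Cd73PC and Cd73NC, 1 library for each of 8 conditions, was reverse transcribed with random primers and sequenced as short single-end reads. The deposited FPKM values and their confidence bounds were made by the authors with TopHat2 2.0.8b and Cufflinks 2.1.1 on NCBI37/mm9; the submitters' processing notes also name CASAVA 1.8.2 and bcl2fastq 1.8.4. Per the study's methods, TopHat2 ran with a coverage search and kept reads with several hits up to a set limit, Cufflinks ran with default options, and genes were those of RefSeq. Values whose estimate failed (20 genes) were treated as missing, 727 small RNA symbols were left out, and the rows of 251 symbols with more than 1 row were summed. Log2 ratios were taken on FPKM + 1 with Python 3.11.15, numpy 2.4.6 and pandas 2.3.3, and calls used 1.5-fold among 13414 genes with FPKM of at least 1 in at least 1 library. The threshold steps were tested on simulated data. The 9 genes, the lists and the markers were chosen with earlier results of these data known. All 9 members were named; of each list, its counts, up to 3 genes with the largest absolute mean ratio between fractions and a few fixed genes were named, and for each member its 3 nearest courses. Some genes that this rule names are not reported here. Alternatives were other pseudocounts, a 2-fold threshold, other scalings, no filter, small RNAs kept, and bounds that lie apart. Absolute depth is unknown, so no interval beyond the Cufflinks bounds was given. Tfap2a and Tfap2b of the amacrine and ganglion cell list were not matched by symbol.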

Additional observations from a re-analysis of the deposited data

Results flagged for a closer look

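Tet1, the enzyme of its family with the lowest postnatal level in the rod lineage, went in opposite directions in the fractions after P2. From P2 to P5 its log2 ratio was -0.26 in Cd73PC and 0.53 in Cd73NC, and from P2 to P8 it was -0.19 in Cd73PC and 0.55 in Cd73NC. The bounds lay apart in all 4 cases, and none passed 1.5-fold. The P5 and P8 values share the P2 libraries, and with 1 library per condition the difference between fractions was not tested. In scalings chosen after seeing the data, the P8 value in Cd73PC was -0.10 at a common upper quartile and 0.09 after quantile normalisation, while that in Cd73NC was 0.63 and 0.57; at P5 they were -0.20 and -0.03 in Cd73PC and 0.58 and 0.55 in Cd73NC.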

How the results depend on the processing

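Of 66 counts recomputed under alternatives, 56 stayed within 1.5 times of the value given. Keeping small RNAs or dropping the filter cannot change counts of members. For members, only the number called was compared, and not which genes they were. Between fractions at P8, quantile normalisation gave 3 members instead of 4. They were Tet2 and Tet3, higher, and Dnmt1, lower, while Uhrf1 and Tet1 were no longer called. A 2-fold threshold gave 0 members instead of 1 for E18 against E15, 3 instead of 5 for P8 against P2 in Cd73PC, and 3 instead of 5, 1 instead of 4 and 1 instead of 4 between fractions at P2, P5 and P8. For P2 Cd73NC against E18, 1 member (Tet2, lower) instead of 0 was called with a pseudocount of 0.1, with no pseudocount and with upper-quartile scaling. Quantile normalisation gave 2 instead of 4 between fractions at P5, and 8 of the 27 most similar genes. The cause of these moves was not tested, apart from the stricter threshold. Of 135 log2 ratios between fractions, 129 moved by less than 1.5-fold, among them those with small RNAs kept, which cannot move. The other 6 were Dnmt3b at P5 and P8 and Uhrf1 at P8 with a smaller or no pseudocount, all larger in size. The sign changed 5 times, only for Mbd1. No paired analysis was possible because the labels carry no replicate numbers and each condition has 1 library; the fractions of a stage come from the same retinas, their differences are given stage by stage, and a model with stage as a block was not fitted. No replicate could be left out within a condition. Levels under 1 FPKM (Dnmt3b in P5 Cd73PC and both P8 fractions, and Uhrf1 in P8 Cd73PC) are among the lowest here, and fold changes there depend on the pseudocount.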
